A study of Rattus norvegicus with 12 samples.

Results

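The genes described here are Mx1, Mx2, Tmprss2, Fam3b, Bace2, Ripk4 and Prdm15, 7 of the 18469 genes in the deposited tables. Among the genes of the tables they are neighbours on rat chromosome 11. They were chosen by a measured value: the block was selected on the strong rise of Tmprss2 in the libraries labelled siSlc25a26 PE. The levels of these genes in those libraries are therefore given as a description with no test. RNA was sequenced from neonatal rat ventricular myocytes (NRVMs) of Sprague-Dawley rats, cultured in DMEM with insulin, transferrin and selenium. There were 12 libraries, 3 per group: cells transfected with the control siRNA siNeg, cells transfected with siSlc25a26, and each of these with PE. PE, phenylephrine, is an agonist of the α1-adrenergic receptor that makes cultured myocytes hypertrophic, and it was given for 36 h starting 12 h after transfection. All 4 groups therefore carry an siRNA, and no group without transfection was analysed here. Slc25a26 encodes the mitochondrial carrier of S-adenosylmethionine.

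Mx proteins are large GTPases of the dynamin superfamily that block the replication of influenza and other viruses. In the rat, Mx1 is found in the nucleus and Mx2 in the cytoplasm. Their genes are classical targets of type I interferon: interferon binds the Ifnar1 and Ifnar2 receptor, the kinases Jak1 and Tyk2 become active, and Stat2 and Irf9 act in a complex that binds interferon-stimulated response elements (ISREs) in DNA. Tmprss2 is a type II transmembrane serine protease, best known from prostate and airway epithelium, that cleaves the surface proteins of influenza viruses and coronaviruses. Of the remaining genes, Bace2 encodes an aspartyl protease related to β-secretase, Fam3b a secreted protein of pancreatic islets, Ripk4 a kinase of keratinocyte differentiation and Prdm15 a zinc finger transcription factor.

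In the order of the RefSeq annotation of assembly GRCr8 the genes run Bace2, Mx1, Fam3b, Mx2, Tmprss2, Ripk4, Prdm15. Tmprss2 is thus the neighbour of Mx2 among the genes of the tables, and Fam3b lies between Mx1 and Mx2. RefSeq lists 11 genes from Bace2 to Prdm15, and 7 of them are in the tables. The promoter windows of Mx1 and Tmprss2 are shown because both genes stood far above the control in the siSlc25a26 libraries, and that of Ifit3, an interferon-induced gene that binds viral RNA, because its profile was the nearest to both. Each window covers 250 bases before and 50 bases after the annotated start (RefSeq, GRCr8), read 5′ to 3′ on the strand of the gene, and capitals mark GAAA on either strand, the element repeated in an ISRE. The windows lie at chr11:50294557-50294856 on the minus strand for Mx1, chr11:50443065-50443364 on the minus strand for Tmprss2 and chr1:241527076-241527375 on the plus strand for Ifit3.
Mx1: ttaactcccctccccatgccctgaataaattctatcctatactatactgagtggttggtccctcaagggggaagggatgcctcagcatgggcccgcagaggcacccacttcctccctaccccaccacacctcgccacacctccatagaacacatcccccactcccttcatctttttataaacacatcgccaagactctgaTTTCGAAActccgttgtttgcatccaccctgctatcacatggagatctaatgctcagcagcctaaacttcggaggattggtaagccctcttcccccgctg
Tmprss2: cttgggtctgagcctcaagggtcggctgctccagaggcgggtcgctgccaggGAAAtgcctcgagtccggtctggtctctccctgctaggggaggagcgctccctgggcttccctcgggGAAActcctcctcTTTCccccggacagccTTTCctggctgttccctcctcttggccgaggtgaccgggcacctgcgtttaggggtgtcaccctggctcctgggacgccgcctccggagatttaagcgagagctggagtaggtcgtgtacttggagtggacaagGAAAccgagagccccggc
Ifit3: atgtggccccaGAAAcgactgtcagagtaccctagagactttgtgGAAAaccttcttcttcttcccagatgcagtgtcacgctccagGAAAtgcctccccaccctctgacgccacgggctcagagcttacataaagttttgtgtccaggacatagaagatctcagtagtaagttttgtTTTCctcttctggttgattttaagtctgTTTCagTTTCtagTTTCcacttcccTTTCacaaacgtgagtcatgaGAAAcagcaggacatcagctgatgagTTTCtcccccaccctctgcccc
The table of promoters held 3 of the 7 genes, Mx1, Tmprss2 and Prdm15.

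GAAA occurred 2 times in the Mx1 window, as an adjoining pair on opposite strands, 5 times in that of Tmprss2, 2 times in that of Prdm15 and 10 times in that of Ifit3. It is a common word, held by 90.1% of the 27457 windows. The core of an ISRE, searched on both strands as GAAANNGAAA, occurred 1 time in the Ifit3 window and in 3.77% of all windows. It was in 15 of the 20 windows found for a list of interferon-induced effector genes, and in 0 of those of Mx1, Tmprss2 and Prdm15. Only 1 window per gene was searched, for this exact word. An element outside the window, at another start or spelled otherwise would be missed. TTCNNNGAA, a second element linked to interferon (GAS), was likewise in 0 of these 3 windows, in 6 of the 20 effector windows and in 8.68% of all windows. The GC content was 52.3% for Mx1, 64.7% for Tmprss2 and 61.3% for Prdm15, against a median of 52.3% over all windows.

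Total counts per library ranged from 24770972 to 28709049, and the limit that 3 counts set on a level was 0.0993 to 0.120 CPM (counts scaled to a common library total) across libraries, for counting error only. The targeted gene was checked first. Slc25a26 stood at 31.4 ± 2.0 CPM (SD, n = 3) in siNeg and 15.1 ± 0.612 CPM in siSlc25a26, a fall by 1.08 on the log2 scale (adjusted p = 1.08e-05, edgeR). Under PE it reached 102 ± 14.1 CPM with siNeg, and the libraries labelled siSlc25a26 PE stood at 102 ± 3.69 CPM (log2 fold change -0.0062, adjusted p = 0.969, edgeR), so the label of the latter is not borne out by its target. The 10 cardiomyocyte markers summed to 33400–35100 CPM in siNeg, 54500–59900 in siNeg PE, 32300–36200 in siSlc25a26 and 72000–76700 in the libraries labelled siSlc25a26 PE. Actc1 and Myh7 made up most of the rise with PE. Their group means, in the order given, were 6470, 19900, 5470 and 31700 CPM for Actc1 and 9460, 17600, 11900 and 23700 for Myh7. Myh6 had lower means with PE, at 6930, 5020, 4460 and 4070 CPM, as had Pln, at 3210, 3070, 3360 and 2330. Of the 10, 4 were called higher for PE in siNeg and 0 lower. Without PE, Myh6 was called lower in siSlc25a26 (log2 fold change -0.66) and 0 of the 10 higher. The 8 fibroblast markers summed to 21400–23500, 11600–12000, 12400–14000 and 8680–9430 CPM in the same order, so all groups held fibroblast RNA beside that of the myocytes. Col1a1, Col3a1 and Col1a2 made up most of these sums, with means of 13300, 5840 and 1850 CPM in siNeg. For PE in siNeg 5 of the 8 were called lower, while Pdgfra (0.37), Dcn (0.27) and Postn (0.14) had log2 fold changes above 0. Over all genes tested in that comparison 12.4% were called higher and 8.24% lower. In bulk RNA, fewer cells of a type and less RNA per cell cannot be told apart.

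Mx1 and Mx2 rose with siSlc25a26, and Tmprss2 was read almost only in the groups labelled siSlc25a26. Without PE, Mx1 rose 346-fold and Mx2 104-fold over siNeg, and Tmprss2, next to absent in siNeg, reached 20.7 ± 3.22 CPM. Bace2 and Prdm15, at the ends of the block, differed by less than 1.5-fold, and Fam3b and Ripk4 were at 0 or 1 count in every library. In the libraries labelled siSlc25a26 PE, Mx1, Mx2 and Tmprss2 stood far above siNeg PE as well, and below siSlc25a26 without PE.

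**Figure D1:**
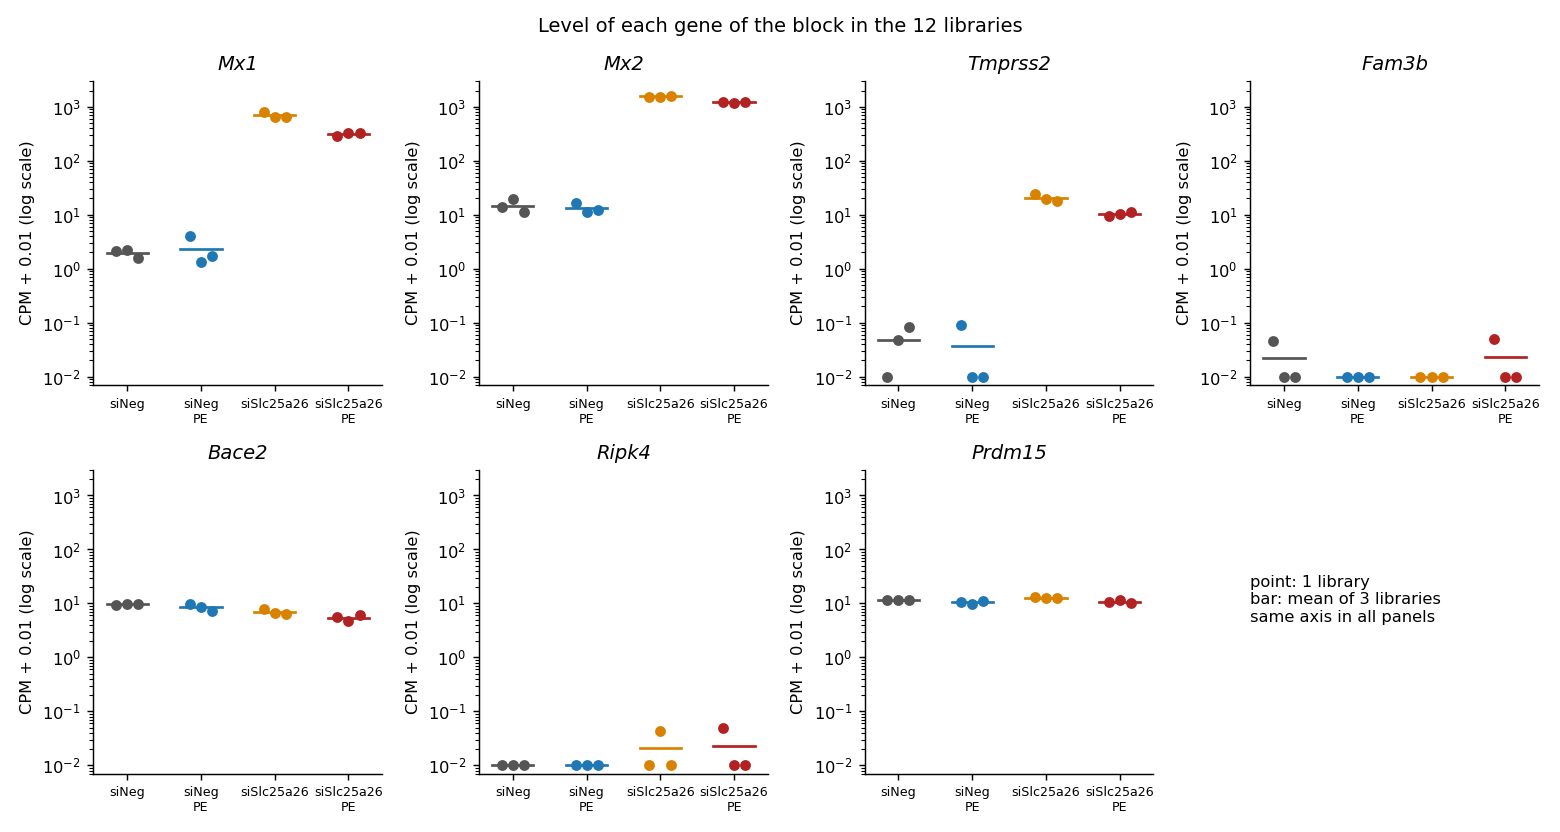
Level of each of the 7 genes in CPM, with 0.01 added, on a log axis that is the same in every panel; points are libraries, bars the mean of 3 libraries, and the 4 groups stand along the horizontal axis. Mx1, Mx2 and Tmprss2 lie far higher in both groups labelled siSlc25a26, the group means of Bace2 lie between 5.45 and 9.66 CPM and those of Prdm15 between 10.6 and 12.9 CPM, and Fam3b and Ripk4 never exceed 1 count.

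Mx1, the nuclear GTPase, had 59.45, 58.17 and 42 estimated counts in the 3 siNeg libraries and 101.2, 34.09 and 43.11 in siNeg PE. It had 23679.42, 19272.19 and 18401.07 in siSlc25a26 and 7261.64, 8392.22 and 8592.97 in the libraries labelled siSlc25a26 PE. The siNeg and siNeg PE libraries overlapped, and both groups labelled siSlc25a26 stood apart from them and from each other. Normalised, the means were 1.97 ± 0.363, 2.35 ± 1.46, 695 ± 97.1 and 316 ± 28.6 CPM (SD, n = 3) in that order. Without PE the difference between siSlc25a26 and siNeg was 8.44 on the log2 scale (SE 0.156, adjusted p = 8.25e-10, edgeR quasi-likelihood test with Benjamini-Hochberg adjustment).

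Mx2, the cytoplasmic GTPase, was the more abundant of both genes in every library, per length as well as by count. It had 388.55, 503.83 and 298 counts in siNeg, and 409.8, 291.91 and 304.89 in siNeg PE. In siSlc25a26 it had 44798.58, 46574.81 and 46107.93 counts, and in the libraries labelled siSlc25a26 PE 31941.36, 29492.78 and 31579.03. As for Mx1, siSlc25a26 was the highest group, the libraries labelled siSlc25a26 PE followed, and siNeg and siNeg PE overlapped below them. The means were 14.8 ± 4.16 CPM in siNeg, 13.3 ± 2.66 in siNeg PE, 1556 ± 40.5 in siSlc25a26 and 1213 ± 37.7 in the libraries labelled siSlc25a26 PE. The log2 fold change of siSlc25a26 over siNeg without PE was 6.69 (SE 0.178, adjusted p = 7.5e-09, edgeR).

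Tmprss2, the protease, was read 0, 1 and 2 times in the siNeg libraries and 2, 0 and 0 times in siNeg PE. It was read 713, 599 and 519 times in siSlc25a26 and 244, 265 and 286 times in the libraries labelled siSlc25a26 PE. The siSlc25a26 libraries and those labelled siSlc25a26 PE thus had 244 counts or more, where the control libraries never passed 2. Over the group, 1831 reads in siSlc25a26 against 3 in siNeg gave a ratio of normalised counts of 559, with an exact 95% counting interval of 191 to 2710. The fitted log2 fold change was 8.94 (SE 0.312), and 9.77 without siNeg replicate 3, which held 2 of the 3 control reads. Tmprss2 passed the filter on low counts only through the libraries where it was high, and the block was chosen on it, so its values are a description and no p is given.

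Of the 7 genes, 5 passed the filter in this comparison. Apart from Tmprss2, Mx1 and Mx2 were called higher, meaning that they changed more than 1.5-fold with an adjusted p below 0.05. Over all genes tested 8.92% were called higher and 7.2% lower, with a median log2 fold change of 0.0145. No gene of the block was called lower by edgeR, DESeq2 or limma-voom, and 1, Bace2, had a lower level with an unadjusted p below 0.05.

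Reads of Mx1 and Mx2 could not always be assigned to 1 of the genes. Mx1 had a fractional count in 11 of the 12 libraries, yet Mx1 and Mx2 together came to a whole number in 12 of 12, within 0.005 counts, as when reads that match both genes are divided between them. The split between the 2 genes is therefore uncertain, whereas their sum is not touched by it. The sums were 448, 562 and 340 in siNeg, 511, 326 and 348 in siNeg PE, 68478, 65847 and 64509 in siSlc25a26 and 39203, 37885 and 40172 in the libraries labelled siSlc25a26 PE. As 1 feature, Mx1 and Mx2 rose by 7.05 on the log2 scale without PE (adjusted p = 5.42e-09, edgeR), a fit added after the data were seen.

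Per length, Mx1 held a larger share of the Mx level in every siSlc25a26 library than in any siNeg library. On the FPKM scale, which divides by gene length, Mx1 held 11.3%, 8.64% and 10.1% of the Mx1 and Mx2 level in siNeg and 17.1%, 9.05% and 10.7% in siNeg PE. It held 30.5%, 25.5% and 24.9% in siSlc25a26 and 15.8%, 19.0% and 18.3% in the libraries labelled siSlc25a26 PE. The siNeg and siSlc25a26 libraries did not overlap (exact two-sided permutation test, p = 0.1, the smallest value that 3 against 3 libraries can give), while siNeg and siNeg PE did (exact permutation p = 0.6). The Mx2 to Mx1 ratio of FPKM was 9.12 ± 1.4 in siNeg and 2.74 ± 0.401 in siSlc25a26 (SD, n = 3). These shares rest on the authors' split of the shared reads.

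The FPKM of Tmprss2 was 2.69%, 2.8% and 2.65% of that of Mx1 in siSlc25a26 and 3.03%, 2.95% and 3.0% in the libraries labelled siSlc25a26 PE, and the 2 groups did not overlap. Within siSlc25a26 the first library was the highest in both Mx1 and Tmprss2 and the lowest in Mx2 counts. Compared per length, Mx2 reached 623–644 FPKM in siSlc25a26, Mx1 213–273, Tmprss2 5.65–7.34, Bace2 4.55–5.55 and Prdm15 2.2–2.37. In siNeg, Bace2 at 6.58–6.87 and Mx2 at 4.38–7.72 FPKM overlapped, followed by Prdm15 at 1.9–2.0, Mx1 at 0.49–0.73 and Tmprss2 at 0–0.02. Ranked by FPKM among all genes, Mx2 moved from places 7118–8875 in the siNeg groups to 145–151 in siSlc25a26 and Mx1 from 11221–12672 to 335–448, while Tmprss2 reached places 7616–8282 in siSlc25a26 and 9658–9891 in the libraries labelled siSlc25a26 PE.

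**Figure D2:**
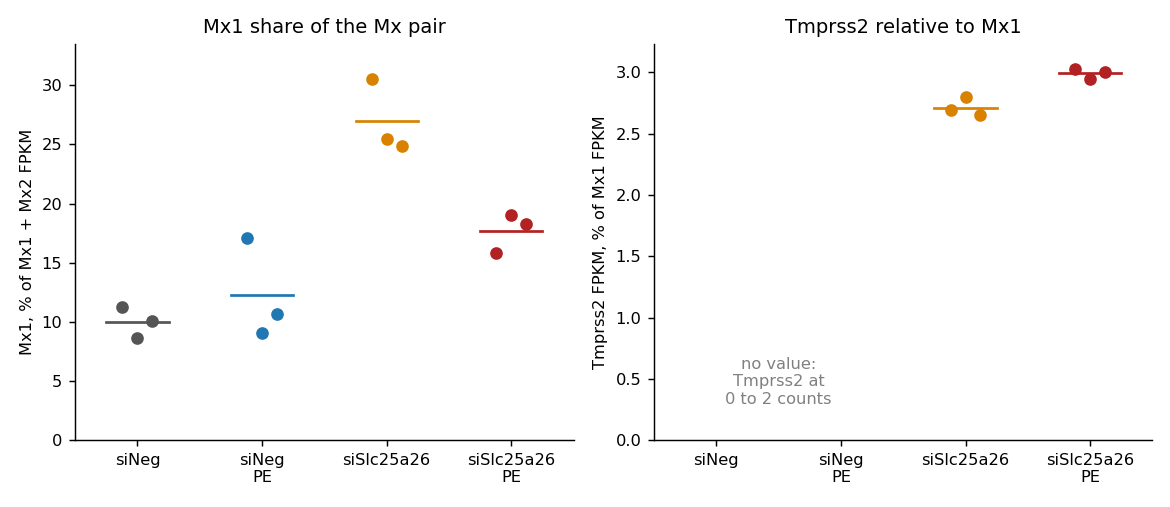
Left, Mx1 as a percentage of the summed FPKM of Mx1 and Mx2; right, Tmprss2 FPKM as a percentage of Mx1 FPKM; points are libraries, bars means of 3 libraries, both axes start at 0. Mx1 lies at 8.64–11.3% of the Mx level in siNeg and at 24.9–30.5% in siSlc25a26, whereas Tmprss2 lies at 2.65–2.8% of Mx1 in siSlc25a26 and at 2.95–3.03% in the libraries labelled siSlc25a26 PE, and has no value in the siNeg groups.

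Bace2, at the start of the block, had 260, 257 and 264 counts in siNeg and 245, 222 and 182 in siNeg PE. It had 227, 203 and 185 counts in siSlc25a26 and 143, 118 and 157 in the libraries labelled siSlc25a26 PE. The latter were the lowest, and siNeg PE and siSlc25a26 overlapped. The means were 9.66 ± 0.202, 8.55 ± 1.25, 6.96 ± 0.685 and 5.45 ± 0.699 CPM. Without PE, siSlc25a26 differed from siNeg by -0.50 on the log2 scale (SE 0.106, adjusted p = 0.005, edgeR), a fold of 0.708 that did not pass the 1.5-fold threshold.

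Prdm15, at the far end, had 318, 304 and 313 counts in siNeg, 269, 255 and 281 in siNeg PE, 391, 380 and 364 in siSlc25a26 and 275, 289 and 263 in the libraries labelled siSlc25a26 PE. After normalisation the means lay between 10.6 ± 0.656 CPM in siNeg PE and 12.9 ± 0.411 CPM in siSlc25a26. The difference between siSlc25a26 and siNeg without PE was 0.13 on the log2 scale (SE 0.0800, adjusted p = 0.225, edgeR) and did not pass the test. Fam3b had 1 count in a siNeg library, 1 in a library labelled siSlc25a26 PE and 0 in the other 10. Ripk4 had 1 count in a siSlc25a26 library, 1 in a library labelled siSlc25a26 PE and 0 in the other 10. Both stayed under the limit of 3 counts, so no fold was computed, and Fam3b was not detectable at this depth although it lies between Mx1 and Mx2.

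The genes around the block were then examined along the chromosome. Taking the 8 nearest genes of the tables on each side, 10 of the 16 could be tested without PE and their log2 fold changes ran from -0.47 to 0.73. Brwd1, a bromodomain protein, was called higher in siSlc25a26 (0.73, adjusted p = 0.00985, edgeR). The value of -0.47 was that of Wrb, which takes part in the insertion of tail-anchored proteins (adjusted p = 0.000154, edgeR). It did not pass the fold threshold, so that none of the 10 was called lower. Over all genes tested 8.92% were called higher and 7.2% lower, so these counts do not set the neighbours apart from other genes. By size, the large fold changes covered Mx1, Mx2 and Tmprss2, with the undetected Fam3b among them.

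**Figure D3:**
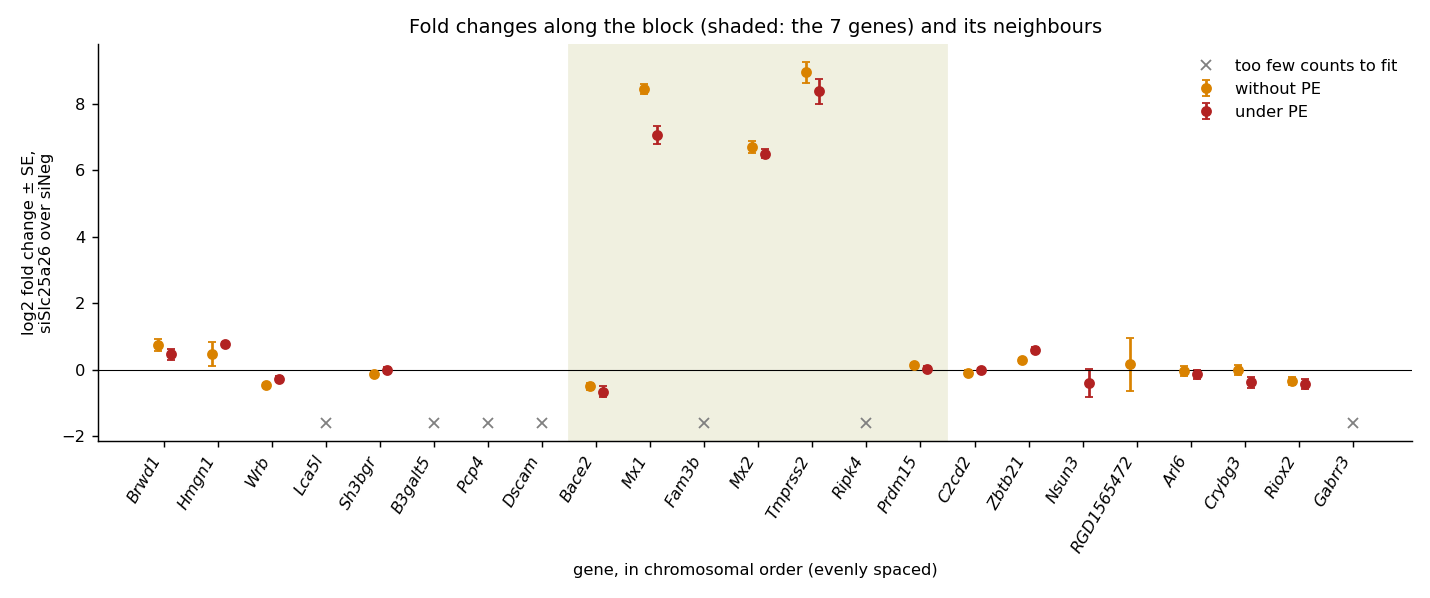
Fitted log2 fold change (± SE) of siSlc25a26 over siNeg for the 7 genes (shaded) and 8 neighbours on each side, evenly spaced in chromosomal order, without PE and under PE; crosses mark genes with too few counts in both fits. Mx1, Mx2 and Tmprss2 lie between 6.50 and 8.94, while every fitted neighbour lies within 1 of 0.

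PE alone was followed by no called change of these genes in siNeg. Of the 7 genes 4 could be tested, and 0 were called in either direction, where 12.4% of all genes were called higher and 8.24% lower. DESeq2 and limma-voom also called 0 of the 4, and 0 had an unadjusted p below 0.05 in edgeR. The log2 fold changes were 0.24 for Mx1 (SE 0.393, adjusted p = 0.632), -0.17 for Mx2 (SE 0.212, adjusted p = 0.54), -0.19 for Bace2 (SE 0.118, adjusted p = 0.214) and -0.13 for Prdm15 (SE 0.0931, adjusted p = 0.256, edgeR). The sign for Mx1 was set by siNeg PE replicate 1, the library with 101.2 counts: without it the value was -0.38, and with Mx1 and Mx2 summed it was -0.11. For Mx2 the value was 0.067 without siNeg replicate 2. Tmprss2, with 3 reads in siNeg and 2 in siNeg PE, was not tested. The siNeg PE libraries may be the baseline of the rise for which the block was chosen.

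The libraries labelled siSlc25a26 PE are described only, since they chose the block, and their label was not borne out by Slc25a26 itself. Against siNeg PE the log2 fold changes were 7.06 for Mx1 (SE 0.279), 6.50 for Mx2 (SE 0.144), -0.66 for Bace2 (SE 0.154) and 0.015 for Prdm15 (SE 0.0989). Tmprss2 had 795 reads against 2, a ratio of normalised counts of 393 (exact 95% counting interval 109 to 3250). Without siNeg PE replicate 1, which held both control reads of Tmprss2 and the most Mx1 reads, the fitted values were 7.70 for Mx1 and 11.04 for Tmprss2, the latter against libraries at 0 and so dependent on the fit. Against siSlc25a26 without PE, the same libraries had log2 fold changes of -1.12 for Mx1 (SE 0.102), -0.99 for Tmprss2 (SE 0.121) and -0.35 for Mx2 (SE 0.0478). Bace2 was at -0.34 (SE 0.136) and Prdm15 at -0.24 (SE 0.0842) in that comparison. The siSlc25a26 comparisons share libraries with those above, and their difference was not tested.

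The profiles of Tmprss2, Mx1 and Mx2 over the 12 libraries were compared with those of other genes, as a description only, since they include the values on which the block was chosen. Likeness was the root-mean-square difference of log2 CPM, each gene centred on its own mean, over 14086 genes, and all points share the same libraries. A prior count of 2 was added before taking logs. The control level of Tmprss2, at 0 to 2 reads per library, was therefore set largely by this prior. For Tmprss2 the nearest genes were Ifit3 (0.385), the ubiquitin-like modifier Isg15 (0.394), the helicase Ddx60 (0.395), the adaptor Hsh2d (0.445) and Trim30 (0.464), against a median of 3.62. The values for Mx1 and Mx2 were 0.458 and 0.497, whereas Bace2 lay at 3.89 and Prdm15 at 3.57.

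For Mx1 the nearest were Ifit3 (0.404), Isg15 (0.578), Ddx60 (0.592), Trim30 (0.642) and Hsh2d (0.687), the genes named for Tmprss2, and Mx2 lay at 0.699 (median of all genes 3.94). For Mx2 they were Isg15 (0.252), the oligoadenylate synthetase Oas1a (0.252), Trim30 (0.375), Rtp4 (0.428) and the transcription factor Irf7 (0.438), with a median of 3.33. Mx1 was thus nearer to Tmprss2 than to its paralogue on this measure, and Mx2 had 2 of its 5 nearest genes, Isg15 and Trim30, in common with both. The distances to Tmprss2 depend on the prior count, and their order under another prior was not tested. All distances of Mx1 and Mx2 also rest on the uncertain split of the reads that both genes share.

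**Figure D4:**
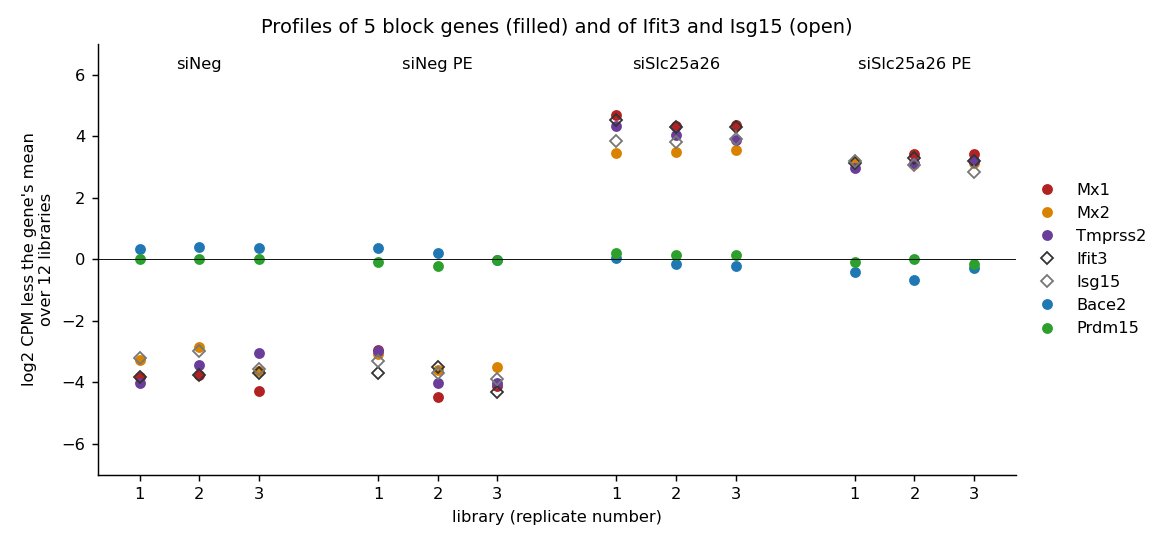
Log2 CPM of 5 genes of the block (filled) and of Ifit3 and Isg15 (open), each less its mean over the 12 libraries, for the 3 libraries of each group. Mx1, Mx2 and Tmprss2 lie with Ifit3 and Isg15, low in siNeg and siNeg PE, highest in siSlc25a26 and lower in the libraries labelled siSlc25a26 PE, while Bace2 and Prdm15 stay near 0.

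The pathway that drives Mx genes was followed from ligand to effector with lists of its genes. Of 11 interferon ligand symbols 9 were in the tables and 1 passed the filter on low counts. That gene, Ifnb1, encoding interferon β, had 1, 0 and 0 counts in siNeg, 0 in all siNeg PE libraries, 50, 53 and 55 in siSlc25a26 and 4, 7 and 7 in the libraries labelled siSlc25a26 PE. The ratio of normalised counts of siSlc25a26 to siNeg was 145 (exact 95% counting interval 25.6 to 5750). Ifnb1 passed the filter only through the libraries where it was high, so no p is given. Ifna4, an interferon α gene, was read 23, 11 and 9 times in siSlc25a26, 1, 1 and 2 times in the libraries labelled siSlc25a26 PE and 0 times in both siNeg groups. Ifna11 had 12.5, 5 and 9.69 estimated counts in siSlc25a26 and 0 in the other 9 libraries, with reads that may be shared among the interferon α genes.

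The receptors differed little beside their downstream genes. All 6 receptor genes were tested without PE, and 0 were called by edgeR, DESeq2 or limma-voom, although 5 had an unadjusted p below 0.05. The same 5 had an adjusted p below 0.05 (edgeR) and higher levels, and did not pass the fold threshold. The log2 fold changes of the 6 receptor genes ran from 0.097 for Ifnar1 to 0.41 for Ifnar2 (adjusted p = 0.00076, edgeR). Of the 8 signal transducers counted 5 were called higher and 0 lower: Irf7 (6.12), Stat2 (2.79), Irf9 (2.20), Irf1 (2.0) and Jak2 (0.94). Jak1 (0.22), Tyk2 (0.46) and Irf3 (0.43) did not pass the fold threshold. Of 4 genes listed as feedback inhibitors 3 were called higher, namely Isg15 (7.07), its protease Usp18 (4.95) and the cytokine signalling suppressor Socs1 (2.68), while Socs3 had 0.56. The largest value of that list was that of Isg15, a ubiquitin-like modifier that was counted there. Beside these counts, 8.92% of all genes tested were called higher and 7.2% lower.

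The effectors moved as Mx1 and Mx2 did. Of 29 interferon-induced effector symbols 28 were in the tables, 27 were tested without PE, 26 were called higher and 0 lower, with a median log2 fold change of 4.98. The shares over all genes tested were 8.92% higher and 7.2% lower. Zbp1, Oas2 and Ifi44l passed the filter only through the siSlc25a26 libraries. Their values are a description and no test, although the 26 and the median include them. The largest fitted values were those of the nucleic acid sensor Zbp1 (8.51, SE 0.4, over at most 2 counts per siNeg library), Ifit3 (8.20) and Rsad2 (6.85), which encodes the antiviral protein viperin. The smallest were those of the RNA-editing enzyme Adar (1.5) and the ubiquitin ligase Trim25 (2.06), both called, and Oas3 (0.11), which was not. The value of 8.44 for Mx1 lay above the median of these genes. In the libraries labelled siSlc25a26 PE the median of the effectors was 4.44 against siNeg PE and -0.74 against siSlc25a26.

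PE in siNeg was accompanied by smaller differences of the same lists. Of 25 effectors tested, 3 were called higher, Ifit1 (2.64), the kinase Eif2ak2 (0.95) and the RNA sensor Ifih1 (0.77), and 6 lower, where 12.4% of all genes were called higher and 8.24% lower. The median log2 fold change of the effectors was -0.30. Ifit1, at no more than 6 counts in a siNeg library, passed the filter only through the siNeg PE libraries, so its value is a description. Irf7 (-1.26) and Stat2 (-0.59) were called lower among the 8 transducers, and 0 of 6 receptors and 0 of 4 feedback inhibitors were called by edgeR, DESeq2 or limma-voom, with 4 and 2 of them at an unadjusted p below 0.05. The adjusted p (edgeR) was below 0.05 for 3 and 1 of them. Mx1 and Mx2, both uncalled there, had values within the range of these effectors.

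**Figure D5:**
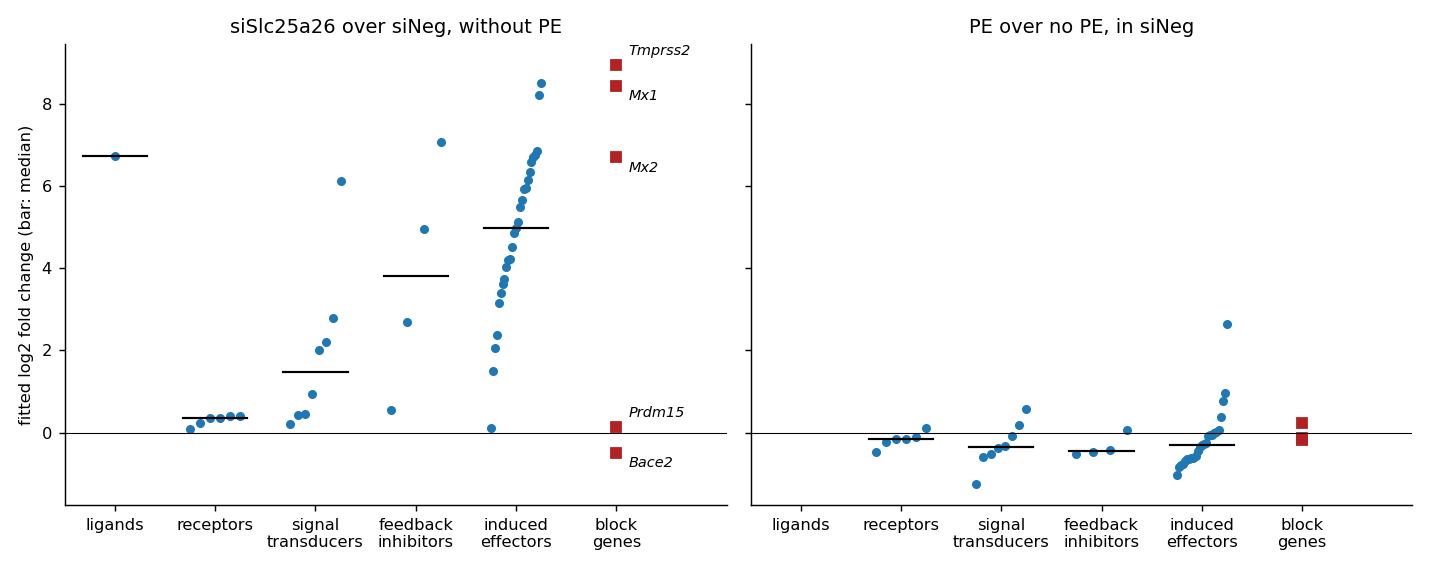
Fitted log2 fold changes of interferon ligands, receptors, signal transducers, feedback inhibitors and induced effectors (points, bars at the median of each list) and of the genes of the block (squares), without PE for siSlc25a26 over siNeg (left) and for PE over no PE in siNeg (right). On the left the only ligand fitted, Ifnb1, lies at 6.72, over at most 1 count per siNeg library. The medians are 0.355 for the receptors and 1.47, 3.81 and 4.98 for the transducers, inhibitors and effectors, with Isg15 counted among the inhibitors. Mx1, Mx2 and Tmprss2 lie between 6.69 and 8.94. On the right the points lie near or below 0 with few exceptions.

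Relatives of these genes by sequence family were counted beside the overall shares of 8.92% called higher and 7.2% lower. Of 19 symbols of type II transmembrane serine proteases other than Tmprss2, 11 were in the tables and 4 were tested without PE, with 0 called by edgeR, DESeq2 or limma-voom and 2 at an unadjusted p below 0.05. The 4 tested were Hpn (-0.0005), Corin (0.31, adjusted p = 0.0328, edgeR), which processes atrial natriuretic peptide, St14 (0.46) and Tmprss9 (-0.31). Of 10 further dynamin superfamily GTPases, which act in the fusion and fission of membranes, Atl2 alone was called higher (0.66, adjusted p = 0.000138, edgeR) and 0 lower. Among 14 tested relatives of Bace2, Fam3b, Ripk4 and Prdm15, Ripk3 (1.65) and Ripk2 (1.40), kinases of cell death and of immune signalling, were called higher and Prdm6 (-0.98) lower.

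Markers of other cells in which Tmprss2 or interferon genes are expressed were read beside these results. Each count of markers called without PE stands beside the shares over all genes tested, 8.92% called higher and 7.2% lower. The 9 epithelial markers in the tables summed to 4.81–6.96 CPM in siNeg, 11.3–16.8 in siNeg PE, 6.88–9.57 in siSlc25a26 and 22.8–24.4 in the libraries labelled siSlc25a26 PE. Krt18 and Krt8 made up most of these sums. Their means were 1.2 and 3.45 CPM in siNeg, 6.26 and 5.28 in siNeg PE, and 2.61 and 3.93 in siSlc25a26. In the libraries labelled siSlc25a26 PE they were 16.7 and 5.79 CPM. Of 3 epithelial markers tested without PE, Krt18 (1.09) and Krt19 (1.46) were called higher, and Krt8 (0.16) was not. Others went the other way. Cdh1 stood at 0.259 CPM in siNeg, 0.0342 in siSlc25a26 and 0.0129 in the libraries labelled siSlc25a26 PE. Krt14 and Esrp1 were also lower in siSlc25a26 than in siNeg, at few counts. Krt19 was at -1.31 in the libraries labelled siSlc25a26 PE against siNeg PE. The defining marker Epcam was at 0 in siNeg, 0, 6 and 3 in siNeg PE, 1, 1 and 2 in siSlc25a26 and 18, 13 and 12 counts in the libraries labelled siSlc25a26 PE, and Grhl2 never passed 1 count. The 8 leukocyte markers summed to 28.6–36.8 CPM in siNeg, 16.0–18.9 in siNeg PE, 19.3–20.1 in siSlc25a26 and 15.3–20.1 in the libraries labelled siSlc25a26 PE, with 3 of 6 tested called lower and 0 higher without PE. Of the 8 fibroblast markers 6 were called lower in siSlc25a26 without PE, while Pdgfra (-0.044) and Tcf21 (0.40, adjusted p = 0.0156, edgeR) were not called. The endothelial markers summed to 22.5–29.8 CPM over all libraries. The mesothelial markers summed to 24.5–36.8 CPM in siNeg, 30.5–39.8 in siNeg PE, 17.1–22.4 in siSlc25a26 and 16.9–21.3 in the libraries labelled siSlc25a26 PE, and 3 of 5 tested were called lower without PE, Msln (-1.58), Upk3b (-1.10) and Upk1b (-0.67). The part of cell composition in the levels of Bace2, Mx1, Mx2 and Tmprss2 was not tested.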

How the data were processed

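RNA of cultured NRVMs was sequenced by BGI in 12 libraries, 3 independent replicates per group, and the groups and replicate numbers were taken from the sample titles. The study's methods describe siNeg and PE but another targeting siRNA, and they give other times of treatment than the labels, which were followed. For each gene the authors deposited its estimated count in every library, with 20.8–21.9% of the values of each library fractional, and in a second table its FPKM, which the authors scaled by gene length and library total. The submitters' processing notes name HISAT, Bowtie2 and the build Rnor_6.0. The counting program, annotation and strandedness are not given in the sources used here, so overlapping and antisense genes cannot be told apart.

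Estimated counts were rounded to whole numbers, where plain counts had been planned for, and tested with edgeR 4.0.16 in R 4.3.3 (TMM, filterByExpr, quasi-likelihood F-test, Benjamini-Hochberg adjustment over all genes tested), with only the 2 groups compared in each fit. Called genes had a fold change over 1.5 with an adjusted p below 0.05. CPM used TMM-adjusted library totals, and profiles were drawn from log2 CPM (prior count 2). The fits were tested on simulated data. Replicates differed by more than sampling noise. Of 18469 identifiers, 16962 matched RefSeq (GRCr8), which was used for names, gene order and promoters, and gave all 7 members.

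The members and gene lists were chosen with earlier results of these data known, and 1 gene of the transducer list is not reported here. Named genes were all members, Slc25a26, genes of the ligand, receptor, transducer and feedback lists, the 3 largest and 3 smallest fold changes of the other lists without PE, and the 5 genes nearest in profile to Mx1, Mx2 and Tmprss2. Genes called by PE, marker genes, Brwd1 and Wrb were also named where counts were small, after their values were seen. Alternatives were DESeq2 1.42.0 and its size factors, limma 3.58.1 with voom or on log2 FPKM after adding 1 or 0.1, no filter, a mean of at least 10 counts, all 12 libraries in 1 fit, the replicate block, no fold threshold, and leaving out each library.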

Additional observations from a re-analysis of the deposited data

How the results depend on the processing

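Mx1 and Mx2 were called higher in siSlc25a26 without PE under every alternative run. With the fold threshold kept, Bace2 and Prdm15 were called under none, and without it Bace2 would be (adjusted p = 0.005, edgeR). The value of Tmprss2 without PE was 2.855 with log2(FPKM + 1) and 5.867 with log2(FPKM + 0.1), against 8.939. The count of genes called without PE moved from 1233 higher and 996 lower to 3223 and 2998 with no fold threshold, and to 452 lower with log2(FPKM + 1). For PE in siNeg the counts of 1708 and 1130 moved to 3456 and 3329 with no fold threshold and to 857 and 733 with log2(FPKM + 1). The pseudocount compresses low values, and the fold threshold sets the size of the list. Leaving out 1 library at a time, the log2 fold change of PE in siNeg ranged from -0.3758 to 0.5371 for Mx1 and from -0.3426 to 0.06712 for Mx2, and with Mx1 and Mx2 summed it was -0.1121 (adjusted p = 0.703, edgeR). None of these was called.

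For the libraries labelled siSlc25a26 PE against siNeg PE, leaving out 1 library gave 6.765 to 7.695 for Mx1 and 7.842 to 11.04 for Tmprss2. With log2(FPKM + 1) the values were 5.80 for Mx1, 6.204 for Mx2 and 1.931 for Tmprss2, and with log2(FPKM + 0.1) 4.788 for Tmprss2. Against siSlc25a26, Mx1 was at -1.293 with log2(FPKM + 0.1), and Mx2 at -0.5126 and -0.5135 with the pseudocounts of 1 and 0.1. The other 274 values stayed on the same side of the threshold, or within 1.5 times or 1 SD.

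Libraries of the same replicate number did not deviate together in every pair (correlations from -0.0913 to 0.217). Between siNeg PE and siNeg the correlations were 0.145, 0.00943 and 0.217 for replicates 1, 2 and 3. Between the libraries labelled siSlc25a26 PE and siNeg PE they were 0.209, 0.0252 and 0.169. Whether libraries of the same number shared a preparation is not given by the labels and was not tested. With a replicate block, 1206 genes were called higher and 945 lower without PE, 1803 and 1166 for PE in siNeg, and the log2 fold changes were 8.436 for Mx1, 6.712 for Mx2 and 8.936 for Tmprss2. Depth limits Fam3b, Ripk4 and the control level of Tmprss2, which rest on 0 to 2 reads per library.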
